A study of Homo sapiens with 3 samples.

Results

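The transcripts described here come from 39 interferon-stimulated genes in the human lung adenocarcinoma line NCI-H23 after knockdown of USP16 by siRNA. USP16 is a deubiquitinase known to act on histone H2A. The genes were taken by name, from a list chosen with earlier results of these data known. The rule itself uses no measured value, and all 39 genes were found among the 50868 gene rows of the deposited count files. mRNA was sequenced in 3 libraries: siUSP16 library 1 and siUSP16 library 2, from cells given siRNA against USP16, and 1 library from cells given a control siRNA. All 3 cultures were therefore transfected, and no library of untransfected or interferon-treated cells was analysed here. The labels number the siUSP16 libraries without saying whether they stand for different siRNAs or for different cultures, so a p-value here reflects the spread between 2 libraries, and that spread may be technical.

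Interferon-stimulated genes are switched on when a secreted interferon binds its receptor, the receptor-bound kinases JAK1 and TYK2 or JAK2 phosphorylate STAT proteins, and the STAT proteins move to the nucleus. Type I and type III interferons form a complex with STAT2 and IRF9 that binds the interferon-stimulated response element (ISRE), whereas interferon gamma forms STAT dimers that bind the gamma-activated site (GAS). Foreign RNA in the cytoplasm, which can include transfected RNA, is recognised by sensors such as RIG-I (DDX58) and MDA5 (IFIH1), which lead to interferon production. Tumour cell lines can also carry a low, constant level of this programme without added interferon.

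The promoters of these genes are shown first because the ISRE and the GAS are what joins the genes to the signalling factors described further on. RefSeq promoter windows on GRCh38.p14, from 250 bases before to 50 bases after a gene start, were available for 31 of the 39 genes, some with several starts, which gave 41 windows. The ISRE core was searched as GAAANNGAAA and the GAS core as TTCNNNGAA, on both strands. An ISRE core was present in at least 1 window of 22 of these 31 genes (71.0%), against 1195 of 27305 genes (4.38%) with any window. A GAS core was present for 10 of the 31 genes (32.3%), against 2560 of 27305 genes (9.38%). Per window, the ISRE core stood in 26 of the 41 windows, against 1255 of all 35116 windows (3.57%). The GAS core stood in 11 of the 41 windows, against 2689 of all windows (7.66%). The 2 motifs share letters where they overlap, as in the windows of MX1, IFI27, IFITM1 and BST2. A match describes the letters and not a bound site.

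The stretches that follow hold the core matches, in capitals, of genes at the centre of the results: the most abundant effectors, the ubiquitin-like modifier ISG15, the gene with the largest gap between the siUSP16 libraries among those with at least 20 counts (MX1), a sensor, the neighbouring genes PARP9 and DTX3L, PARP14, and IRF1 with its GAS core. Each is written 5′ to 3′ on the strand of its gene.
ISG15, chr1:1013364-1013419, + strand, 2 overlapping ISRE cores: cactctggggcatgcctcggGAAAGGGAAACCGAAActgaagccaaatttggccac
MX1, chr21:41420549-41420578, + strand, ISRE core: ggaaaccagcgagcagaaatGAAACCGAAA
OAS3, chr12:112938311-112938473, + strand, 2 ISRE cores: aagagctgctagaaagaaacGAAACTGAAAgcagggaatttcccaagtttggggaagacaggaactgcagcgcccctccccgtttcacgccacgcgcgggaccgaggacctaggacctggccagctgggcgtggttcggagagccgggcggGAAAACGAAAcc
IFITM3, chr11:320866-320932, − strand, 2 ISRE cores: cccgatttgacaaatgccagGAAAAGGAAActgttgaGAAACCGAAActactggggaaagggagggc
DDX60, chr4:168318776-168318860, − strand, 2 ISRE cores: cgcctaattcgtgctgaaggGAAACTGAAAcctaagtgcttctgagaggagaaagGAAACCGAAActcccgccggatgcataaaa
PARP9, chr3:122564312-122564361, − strand, ISRE core read on the other strand: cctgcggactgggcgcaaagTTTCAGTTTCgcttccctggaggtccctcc
DTX3L, chr3:122564312-122564341, + strand, ISRE core: ggagggacctccagggaagcGAAACTGAAA
PARP14, chr3:122680790-122680838, + strand, ISRE core: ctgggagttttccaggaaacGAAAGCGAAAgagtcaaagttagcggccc
IRF1, chr5:132490869-132490917, − strand, GAS core: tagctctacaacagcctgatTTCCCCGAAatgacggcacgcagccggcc

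PARP9 and DTX3L lie head to head, and a single ISRE core at chr3:122564332-122564341 falls in the windows of both genes, on opposite strands. The ISG15 stretch holds 2 cores that overlap by a half-site, and the IFITM3 and DDX60 stretches hold 2 separate cores each. No window was available for IFIT2, MX2, OAS2, OASL, IFITM2, IRF7, USP18 and TRIM22.

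**Figure D1:**
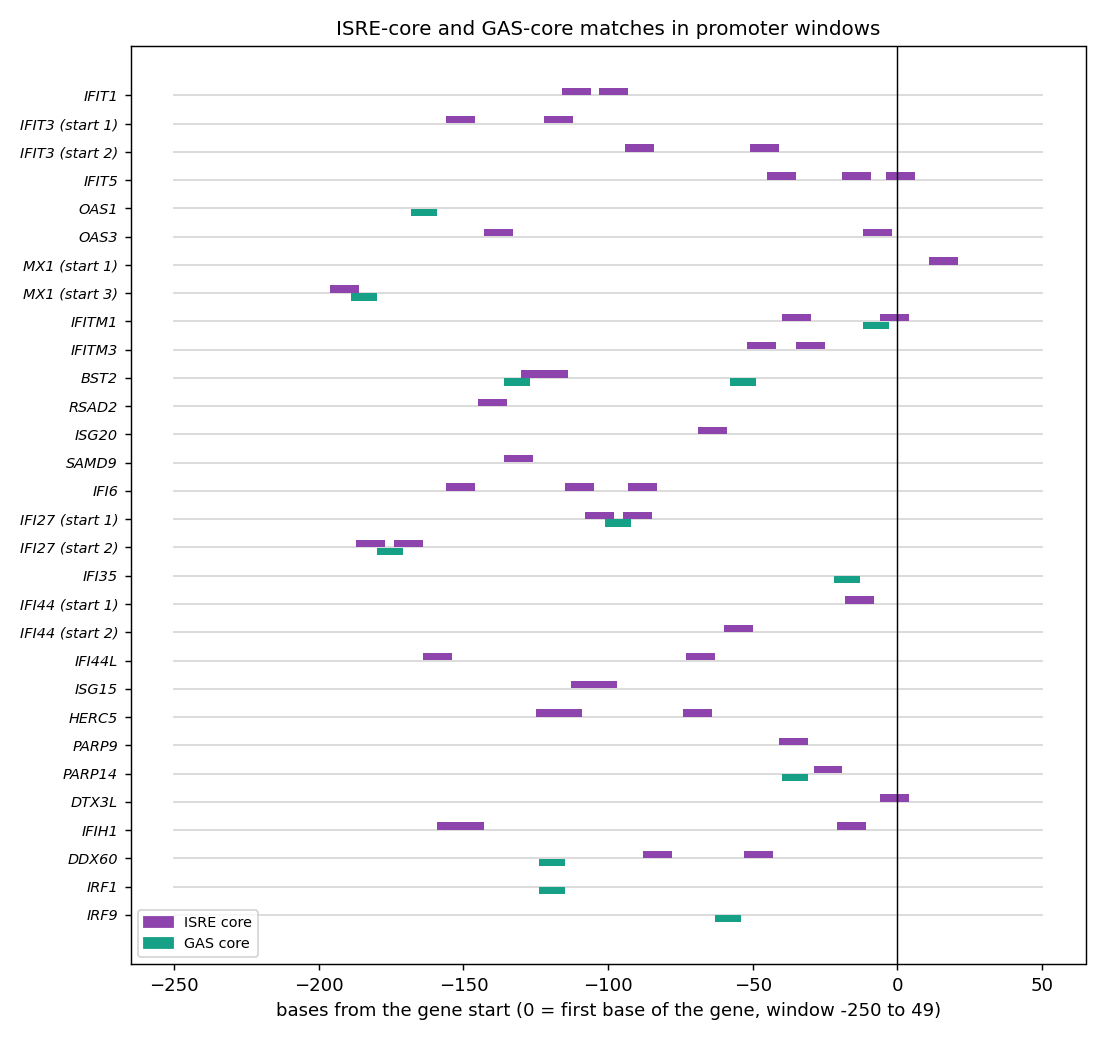
Positions of ISRE-core (purple) and GAS-core (green) matches in RefSeq promoter windows of interferon-stimulated genes, in bases from the gene start at 0, with 1 line per window and windows without a match left out. Most ISRE cores lie within the 250 bases before the start. A core of each of IFITM1, IFIT5 and DTX3L crosses the start, and that of MX1 (start 1) lies after it.

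The libraries held 13956382 (siUSP16 library 1), 15071179 (siUSP16 library 2) and 14007161 (control) counts. The targeted gene USP16 had 109 and 245 counts in siUSP16 libraries 1 and 2, against 632 in the control library, a log2 change of −2.60 and −1.58. Levels below are CPM, read counts per 1000000 of the library size after TMM scaling (trimmed mean of M-values), log2 changes are of CPM with a prior count of 2, and intervals are 95% exact intervals that cover counting error only. In edgeR's quasi-likelihood test with Benjamini-Hochberg adjustment, 3 of 17287 genes passed an adjusted p of 0.05 (0.0174%), and USP16 had an adjusted p of 0.561. Since the control group was 1 library, the test rested on 1 residual degree of freedom and took the control to vary as the siUSP16 libraries do. Of 7 tested epithelial and lung tumour markers, 6 were lower in both siUSP16 libraries (4 under total counts) and 1 was higher. Over all tested genes, 33.5% were lower in both (26.1% under total counts) and 33.4% were higher. CDH1, an epithelial adhesion gene, had 39 and 93 counts in siUSP16 libraries 1 and 2, against 142 in the control, and KRT7, a keratin, had 23 and 49 in siUSP16 libraries 1 and 2, against 81 in the control. KRT8, a further keratin, had 1118 and 1880 counts in siUSP16 libraries 1 and 2, against 2214 in the control, and VIM, a mesenchymal filament gene, had 19284 and 7957 in siUSP16 libraries 1 and 2, against 20066 in the control. NKX2-1, a lung adenocarcinoma marker, had 4 and 10 counts in siUSP16 libraries 1 and 2, against 6 in the control, and NAPSA had 20 and 9 in siUSP16 libraries 1 and 2, against 20 in the control. EPCAM, another epithelial adhesion gene and the marker that was higher, had 161 and 232 counts in siUSP16 libraries 1 and 2, against 38 in the control library (edgeR adjusted p = 0.757). The part of these markers in the results below was not tested.

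Over the whole list, transcripts of the interferon-stimulated genes were present at a low level in all 3 libraries. They summed to 402 CPM in siUSP16 library 1 (95% interval 392 to 413) and 540 CPM in siUSP16 library 2 (528 to 551), against 617 CPM in the control library (604 to 631). The sum was thus 34.8% lower in siUSP16 library 1 and 12.5% lower in siUSP16 library 2 than in the control library, and the siUSP16 libraries differed from each other by more than library 2 differed from the control. With total counts in place of TMM scaling the sum was 30.3% and 5.03% lower. IFITM3 and OAS3 supplied 42.7% of the sum in siUSP16 library 1, 38.7% in siUSP16 library 2 and 41.1% in the control library. Without these 2 genes the sums were 231 and 331 CPM in siUSP16 libraries 1 and 2, against 363 CPM in the control library. In bulk RNA, fewer expressing cells and less RNA per cell cannot be told apart.

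Of the 39 genes, 26 had at least 20 counts in a library and 13 had fewer than 20 in each. IFITM2 and IFI27, with at most 25 and 28 counts, stood just inside this limit, and IFIT3 and IFITM1, with at most 14 and 13 counts, just outside it. The filter on low counts kept 31 genes: all 26 of the first class, and IFIT3, IFITM1, CMPK2, SAMD9 and TRIM22 of the second.

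None of the 31 tested genes passed the threshold: the adjusted p was 0.999 for every one in edgeR's quasi-likelihood test, against 0.0174% of all genes called. No gene of the list had an unadjusted p under 0.05 in edgeR, against 4.88% of all tested genes, and DESeq2 also called 0, with 0 at an unadjusted p under 0.05, against 2.97%. Of the 31, 17 were lower in both siUSP16 libraries than in the control library (54.8%), at any size of difference, and 33.5% of all tested genes were. By the same reading 5 were higher in both, against 33.4% of all tested genes. A difference of at least 2-fold in both siUSP16 libraries was found for 1 gene that was lower (OASL), against 1.68% of all tested genes, and for 0 that were higher, against 3.75%. Because the siUSP16 libraries are set against the same control library, an error in that library moves both of their differences together.

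Among the 26 genes with at least 20 counts, 14 were lower in both siUSP16 libraries, 5 were higher in both and 7 lay on opposite sides of the control. Of all tested genes, whatever their counts, 33.5% were lower and 33.4% higher in both. With total counts in place of TMM scaling, 11 of the 26 were lower and 6 higher in both. That scaling also moved the shares of all tested genes, to 26.1% lower and 40.7% higher in both. The median log2 change was −0.45 in siUSP16 library 1 and −0.10 in siUSP16 library 2 with TMM scaling, and −0.36 and 0.02 with total counts. Over the 15560 tested genes with at least 20 counts in a library the medians with TMM scaling were −0.0037 and −0.0174. For 7 genes (IFIT5, OAS3, OASL, IFI6, IRF1, IRF9 and DTX3L) the counting interval of the ratio to the control library lay below 1 in both siUSP16 libraries, against 19.1% of the 15560 genes, and for 0 of the 26 it lay above 1 in both, against 15.9%. In siUSP16 library 1 alone, 15 of 26 intervals lay below 1, against 30.7% of the 15560 genes, and 1 above it, against 28%. In siUSP16 library 2 alone, 10 of 26 lay below 1, against 35.8%, and 4 above it, against 32.4%. These intervals hold no spread between cultures.

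**Figure D2:**
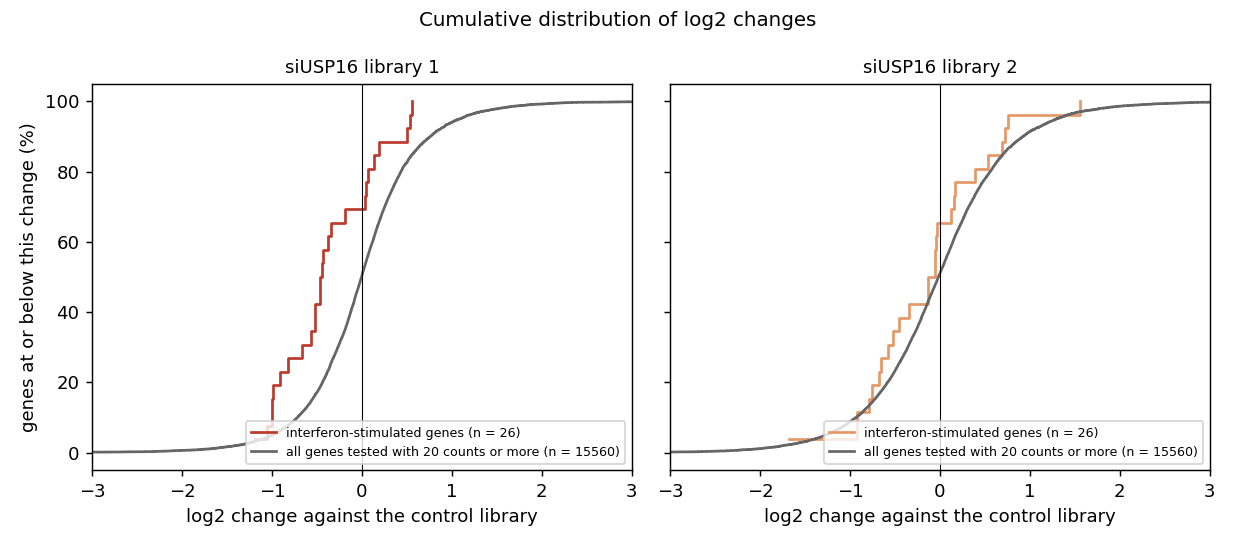
Cumulative share (%) of genes at or below each log2 change against the control library, for siUSP16 library 1 (left) and siUSP16 library 2 (right), with the 26 interferon-stimulated genes in colour and the 15560 tested genes with at least 20 counts in grey. The coloured line runs left of the grey line through most of its range in library 1 (median −0.45) and lies close to it in library 2 (median −0.10).

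Levels of different genes were set side by side after division by exon length (CPM per kilobase of merged exons in GENCODE 29). IFITM3 was the highest of the 39 genes in each library, at 71.3 CPM per kilobase in siUSP16 library 1 and 94.9 in siUSP16 library 2, against 99.0 in the control library. Next in siUSP16 library 1 came OAS3 (9.17), ISG15 (7.95), IFI35 (7.72) and IFI6 (7.01). In siUSP16 library 2 the next were ISG15 (12.5), IFI6 (11), OAS3 (9.81) and IRF1 (6.96). The control library had OAS3 (14.6), IFI6 (14.1), ISG15 (11.5) and IRF1 (9.54) in these places. IFITM3, OAS3, ISG15 and IFI6 were thus among the leading genes in each library, while the order below IFITM3 was not the same in any pair of them.

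**Figure D3:**
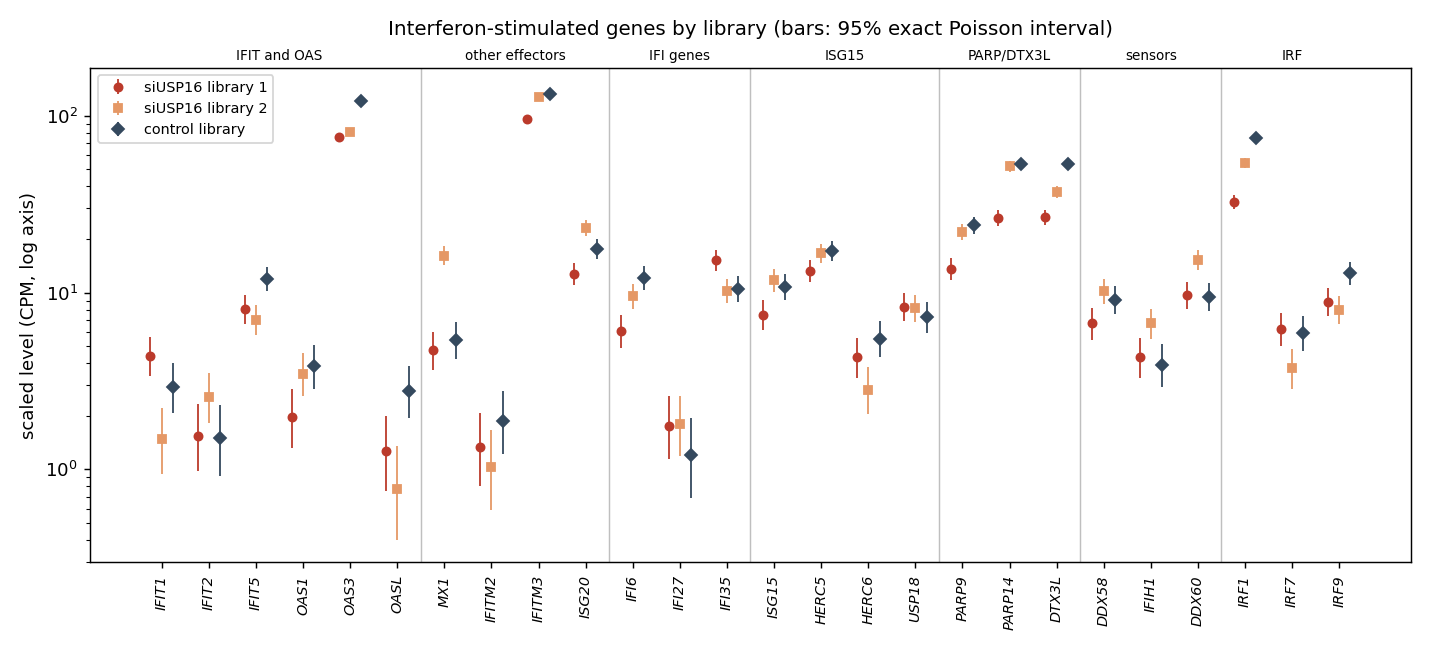
Scaled level (CPM, log axis) of the 26 interferon-stimulated genes with at least 20 counts in a library, grouped by role, with 1 point per library (siUSP16 library 1, siUSP16 library 2, control) and bars for the 95% exact Poisson interval. OAS3 lies at 75.6 and 80.9 CPM in the siUSP16 libraries against 120 CPM in the control, whereas MX1 stands apart in siUSP16 library 2 at 16.2 CPM.

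The IFIT and OAS families bind or sense foreign RNA: IFIT proteins bind RNA ends and block translation, and OAS enzymes make oligoadenylates that activate RNase L. Of 6 such genes with at least 20 counts, 4 were lower in both siUSP16 libraries, 1 was higher in both and 1 was on opposite sides. Over all tested genes, 33.5% were lower and 33.4% higher in both. The family summed to 93.4 and 97.6 CPM in siUSP16 libraries 1 and 2, against 145 CPM in the control library. OAS3 (chr12:112938352-112973249) carried most of this, with 1072 and 1259 counts in siUSP16 libraries 1 and 2, against 1604 in the control library. That is 75.6 and 80.9 CPM in siUSP16 libraries 1 and 2, against 120 CPM in the control, and a log2 change of −0.62 ± 0.07 (SD over 2 siUSP16 libraries). Both siUSP16 libraries were below the control by more than they differed from each other. Its edgeR p was 0.149 before adjustment and 0.999 after.

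OASL (chr12:121019111-121039242), a catalytically inactive relative that enhances RIG-I signalling, had 18 and 12 counts in siUSP16 libraries 1 and 2, against 37 in the control library. Its log2 changes were −1.05 and −1.68, with an edgeR p of 0.0811 before adjustment, on few counts. IFIT5 (chr10:89414586-89421001) had 114 and 109 counts in siUSP16 libraries 1 and 2, against 159 in the control, a log2 change of −0.66 ± 0.14 (SD, 2 siUSP16 libraries). OAS1 had 28 and 54 counts in siUSP16 libraries 1 and 2, against 51 in the control, so library 2 was close to the control.

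IFIT1 and IFIT2, which lie in the same cluster on chromosome 10 as IFIT5, did not share its pattern. IFIT1 (chr10:89392546-89406486) had 62 counts in siUSP16 library 1 and 23 in siUSP16 library 2, against 39 in the control library. The control value lay between the siUSP16 values, and IFIT1 was the 1 tested gene of the list at least 2-fold lower in siUSP16 library 2 than in siUSP16 library 1, against 8.02% of all tested genes. IFIT2 had 22 and 40 counts in siUSP16 libraries 1 and 2, against 20 in the control, with intervals of both ratios that span 1. IFIT3, the partner of IFIT1 in its complex, had 5 and 14 counts in siUSP16 libraries 1 and 2, against 14 in the control, and OAS2 had 3 and 7 in siUSP16 libraries 1 and 2, against 5 in the control.

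Other antiviral effectors were led by IFITM3, a membrane protein that hinders viral fusion in endosomes. IFITM3 (chr11:319669-327537) had 1363 and 1990 counts in siUSP16 libraries 1 and 2, against 1776 in the control library. Its levels were 96.2 and 128 CPM in siUSP16 libraries 1 and 2, against 133 CPM in the control, so library 1 stood apart, and the ratio of library 2 to the control was 0.959 (interval 0.899 to 1.02). Its relatives IFITM1, with 3 and 12 counts in siUSP16 libraries 1 and 2, against 13 in the control, and IFITM2, with 19 and 16 counts in siUSP16 libraries 1 and 2, against 25 in the control, were scarce. The IFITM genes share sequence: 39% of the 50-base words of IFITM1 also occur in IFITM2 and 14.4% of those of IFITM3 do, so reads may have been divided between them. Summed, the 3 genes were at 97.7 and 130 CPM in siUSP16 libraries 1 and 2, against 136 CPM in the control.

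MX1 (chr21:41420304-41459214), a GTPase that traps viral nucleoproteins, had 67 counts in siUSP16 library 1 and 252 in siUSP16 library 2, against 72 in the control library. Library 2 alone was high, at 16.2 CPM, against 4.73 CPM in library 1 and 5.41 CPM in the control. The ratio of siUSP16 library 2 to the control was 3.0 (interval 2.30 to 3.95), and that of siUSP16 library 1 to the control was 0.874 (0.617 to 1.24). The mean log2 change of 0.68 had an SD of 1.24 over the 2 siUSP16 libraries and an edgeR p of 0.207 before adjustment. MX2, its neighbour on chromosome 21, had 0 counts in each library, and a count of 0 allows up to 3.

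ISG20, an exonuclease that degrades RNA, had 181 counts in siUSP16 library 1 and 361 in siUSP16 library 2, against 235 in the control library. The siUSP16 libraries were on either side of the control. Of the remaining effectors, RSAD2 (viperin, which makes a chain-terminating nucleotide) had 0 counts in all 3 libraries. CMPK2, a mitochondrial nucleotide kinase beside RSAD2, had 10 and 5 counts in siUSP16 libraries 1 and 2, against 5 in the control. TRIM22, a ubiquitin ligase, had 3 and 12 counts in siUSP16 libraries 1 and 2, against 5 in the control, and SAMD9 had 3 and 5 in siUSP16 libraries 1 and 2, against 10 in the control. The low values of these genes do not separate the libraries. SAMD9L, a paralogue of SAMD9, had 4 and 0 counts in siUSP16 libraries 1 and 2, against 0 in the control. BST2 (tetherin, which holds budding virions at the cell surface) had 8 and 6 counts in siUSP16 libraries 1 and 2, against 0 in the control library. The 95% exact interval of the BST2 ratio to the control started at 1.60 for siUSP16 library 1 and just above 1 for siUSP16 library 2, and no fold is given against a count of 0.

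Across the list, 21 of 31 tested genes were higher in siUSP16 library 2 than in siUSP16 library 1, against 49.9% of all tested genes. Besides MX1, the scarce IFIT3, IFITM1 and TRIM22 were at least 2-fold higher in library 2 than in library 1, which makes 4 of 31 genes, against 7.71% of all tested genes.

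Among genes named IFI, 3 had at least 20 counts. Of these, 1 was lower in both siUSP16 libraries, against 33.5% of all tested genes, and 1 was higher in both, against 33.4%. The remaining 1 (IFI35, higher in both under total counts) was on opposite sides. IFI6 (chr1:27666061-27672218), a mitochondrial and endoplasmic reticulum protein that opposes apoptosis, had 86 and 148 counts in siUSP16 libraries 1 and 2, against 162 in the control library. Its levels of 6.07 and 9.52 CPM in siUSP16 libraries 1 and 2, against 12.2 CPM in the control, gave ratios of 0.499 (interval 0.379 to 0.652) and 0.782 (0.622 to 0.983). IFI27 had 25 and 28 counts in siUSP16 libraries 1 and 2, against 16 in the control, and its 2 log2 changes of 0.51 and 0.53 were close, but both counting intervals span 1. IFI35, which pairs with NMI, had 216 and 159 counts in siUSP16 libraries 1 and 2, against 140 in the control. Its library 1 was above the control (ratio 1.45, interval 1.17 to 1.81) and its library 2 was near it (0.972).

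IFI44 had 3 and 4 counts in siUSP16 libraries 1 and 2, against 1 in the control. IFI44L, often among the most responsive genes to type I interferon in blood cells, had 0 and 8 counts in siUSP16 libraries 1 and 2, against 0 in the control library, and the 95% exact interval of its library 2 ratio started at 1.46. XAF1, a pro-apoptotic factor, had 3 and 7 counts in siUSP16 libraries 1 and 2, against 6 in the control. These 3 genes lie near the limit of detection in every library.

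The ISG15 pathway attaches the ubiquitin-like protein ISG15 to other proteins, through the ligase HERC5, and removes it through the protease USP18, which also dampens signalling at the type I receptor. The 4 genes of this group summed to 33.4 and 39.4 CPM in siUSP16 libraries 1 and 2, against 40.9 CPM in the control library. ISG15 (chr1:1001138-1014540) had 106 and 183 counts in siUSP16 libraries 1 and 2, against 144 in the control, with library 1 below the control (ratio 0.691, interval 0.533 to 0.895) and library 2 near it (1.09, 0.870 to 1.36). HERC5 had 188 and 259 counts in siUSP16 libraries 1 and 2, against 230 in the control, at 13.3 and 16.7 CPM in siUSP16 libraries 1 and 2, against 17.3 CPM in the control, so library 1 was the lowest of the 3 as for ISG15. HERC6, a related ligase, had 61 and 44 counts in siUSP16 libraries 1 and 2, against 73 in the control. USP18 had 118 and 127 counts in siUSP16 libraries 1 and 2, against 97 in the control, and 23% of its 50-base words also occur in the near copy USP41. Both ratios of USP18 have intervals that span 1.

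PARP9, PARP14 and DTX3L encode ADP-ribosylating enzymes and the ubiquitin ligase that pairs with PARP9, and PARP14 is known as a partner of STAT6. All 3 were lower in both siUSP16 libraries (2 of 3 under total counts), against 33.5% of all tested genes (26.1% under total counts). The 3 genes summed to 66.7 and 111 CPM in siUSP16 libraries 1 and 2, against 131 CPM in the control library. DTX3L (chr3:122564238-122575203) had 377 and 578 counts in siUSP16 libraries 1 and 2, against 710 in the control. Its ratios to the control library were 0.499 (interval 0.439 to 0.566) and 0.697 (0.623 to 0.779), and its edgeR p was 0.108 before adjustment. PARP9 (chr3:122527924-122564577), which shares the ISRE core above and 217 exon bases on opposite strands with DTX3L, had 193 and 342 counts in siUSP16 libraries 1 and 2, against 321 in the control. PARP14 (chr3:122680618-122730840) had 375 and 806 counts in siUSP16 libraries 1 and 2, against 707 in the control. For both PARP9 and PARP14, library 1 was low and the interval of library 2 spanned 1. The difference of PARP14 in library 2 was −0.04 on the log2 scale and was 0.08 when total counts replaced TMM scaling. Under that scaling the signs in library 2 of IFITM3, HERC5 and IFI35 also turned.

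Of the 3 RNA sensors, 0 were lower in both siUSP16 libraries, against 33.5% of all tested genes, and 2 were higher in both, against 33.4%. The remaining 1 was on opposite sides, and no difference from the other groups was tested. The 3 sensors summed to 20.7 and 32.1 CPM in siUSP16 libraries 1 and 2, against 22.5 CPM in the control library. By this sum, library 2 was high and library 1 was near the control. IFIH1 (chr2:162267079-162318703), which encodes MDA5, a sensor of long double-stranded RNA, had 61 and 104 counts in siUSP16 libraries 1 and 2, against 52 in the control. Its ratios were 1.10 (interval 0.749 to 1.63) and 1.71 (1.22 to 2.44). DDX60 (chr4:168216293-168318807), a helicase that assists RIG-I, had 137 and 238 counts in siUSP16 libraries 1 and 2, against 126 in the control, with ratios of 1.02 (0.796 to 1.31) and 1.62 (1.3 to 2.02). DDX58, which encodes RIG-I, the sensor of RNA with a 5′ triphosphate, had 95 and 158 counts in siUSP16 libraries 1 and 2, against 121 in the control. The DDX58 ratios were 0.738 (0.558 to 0.973) and 1.12 (0.877 to 1.43), so library 1 was below the control and the interval of library 2 spanned 1. The unadjusted edgeR p was 0.445 for IFIH1, 0.480 for DDX60 and 0.849 for DDX58.

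IRF factors are transcription factors of the interferon programme, and IRF1, IRF7 and IRF9 summed to 47.6 and 66 CPM in siUSP16 libraries 1 and 2, against 93.2 CPM in the control library. IRF1 (chr5:132481609-132490798), a direct target of interferon gamma signalling through a GAS, had 461 and 844 counts in siUSP16 libraries 1 and 2, against 991 in the control. Its levels were 32.5 and 54.3 CPM in siUSP16 libraries 1 and 2, against 74.4 CPM in the control, with ratios of 0.437 (interval 0.390 to 0.489) and 0.729 (0.664 to 0.800) and an edgeR p of 0.106 before adjustment. The siUSP16 libraries were both below the control and differed from each other as well. IRF1 overlaps C5orf56 on the other strand, which had 52 and 89 counts in siUSP16 libraries 1 and 2, against 50 in the control.

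IRF9, the DNA-binding partner of STAT2, had 126 and 124 counts in siUSP16 libraries 1 and 2, against 171 in the control library, a log2 change of −0.60 ± 0.11 (SD, 2 siUSP16 libraries). All 50-base words of its transcript also occur in a readthrough gene on the same strand (AL136295.5 in GENCODE 29), which had 225 and 259 counts in siUSP16 libraries 1 and 2, against 209 in the control. With both counted as 1 gene, an alternative added after the values were seen, the counts were 351 and 383 in siUSP16 libraries 1 and 2, against 380 in the control, and the mean log2 change was −0.21. The size of the IRF9 difference therefore depends on how reads were assigned. IRF7, which amplifies interferon alpha production, had 88 and 58 counts in siUSP16 libraries 1 and 2, against 79 in the control, with library 1 near the control and library 2 below it.

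**Figure D4:**
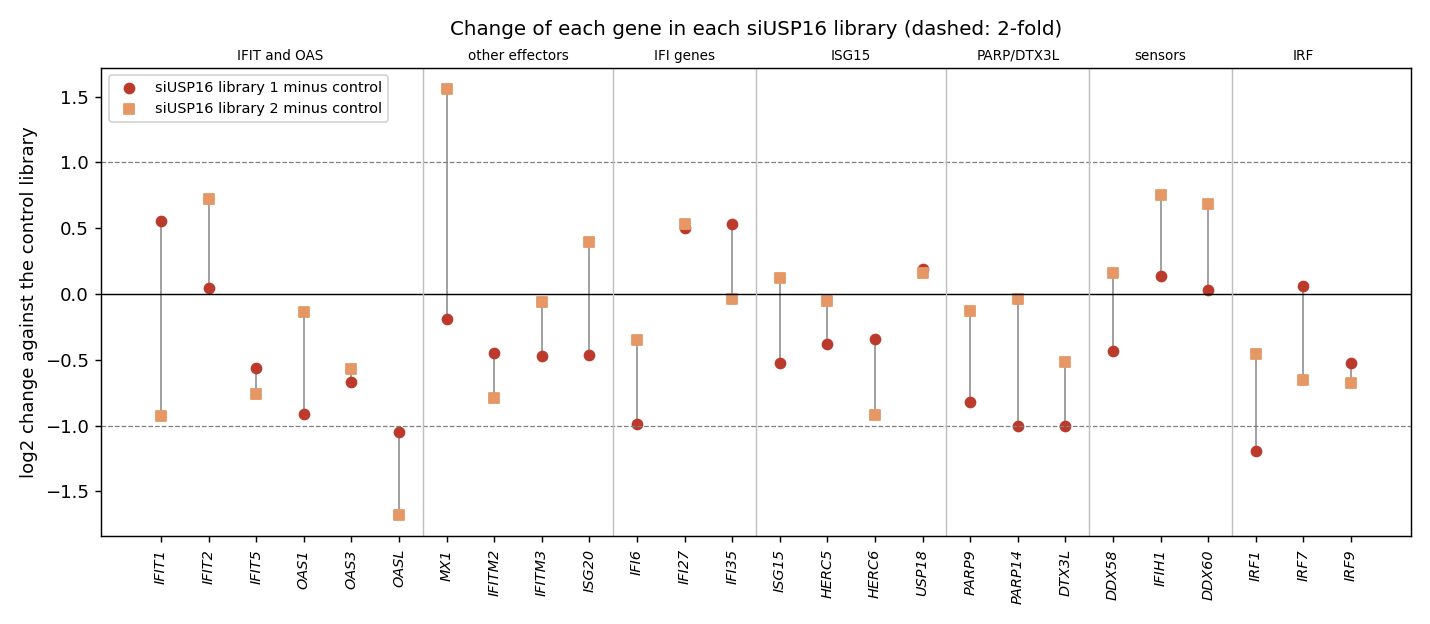
Log2 change of each of the 26 interferon-stimulated genes with at least 20 counts in siUSP16 library 1 (circles) and siUSP16 library 2 (squares) against the control library, grouped by role, with a line joining the values of a gene and dashed lines at 2-fold. OASL is the gene with both points beyond the lower dashed line (−1.05 and −1.68), and the joining line is longest for MX1 (−0.19 and 1.56).

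Genes with an ISRE core in a window were compared with those that had a window and no core, as a description. In siUSP16 library 1 the median log2 change was −0.47 for the 15 genes with an ISRE core and at least 20 counts and −0.48 for the 6 such genes with a window but no core. In siUSP16 library 2 these medians were −0.05 and −0.30. The number lower in both siUSP16 libraries was 8 of 15 with a core and 4 of 6 without, against 33.5% of all tested genes. The difference between these classes was not tested.

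Upstream of these genes, the interferons themselves were at or near 0. The 15 interferon genes summed to 2 and 14 counts in siUSP16 libraries 1 and 2, against 1 in the control library. IFNE, an interferon known from epithelium of the reproductive tract, made up 2 and 11 of these counts in siUSP16 libraries 1 and 2, against 1 in the control, and IFNA5 had 0 and 2 in siUSP16 libraries 1 and 2, against 0 in the control. IFNB1, the interferon made first after RNA sensing, had 0 and 1 counts in siUSP16 libraries 1 and 2, against 0 in the control. The other 12 interferon genes had 0 counts in every library. At 13956382 to 15071179 counts a library, a count of 0 allows up to 3 counts, or 0.193 to 0.225 CPM.

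The receptors and kinases were well above that, and 7 of 9 were lower in both siUSP16 libraries while 1 was higher in both. Of all tested genes, 33.5% were lower in both and 33.4% were higher in both. No gene of this list passed the adjusted threshold in edgeR, where the smallest adjusted p was 0.999, and 3 of 9 had an unadjusted p under 0.05, against 4.88% of all tested genes. With DESeq2 2 of 9 had one, against 2.97%, and JAK1, at 0.0791, did not. The list's median log2 change was −0.50 in siUSP16 library 1 and −0.81 in siUSP16 library 2. JAK1 (chr1:64833229-64966504) had 3322 and 3349 counts in siUSP16 libraries 1 and 2, against 5350 in the control library. Its levels of 234 and 215 CPM in siUSP16 libraries 1 and 2, against 402 CPM in the control, gave a log2 change of −0.84 ± 0.09 (SD, 2 siUSP16 libraries), with an edgeR p of 0.0444 before and 0.999 after adjustment. The siUSP16 libraries lay together and apart from the control. The other kinases differed less: TYK2 had 1151 and 1161 counts in siUSP16 libraries 1 and 2, against 1186 in the control, and JAK2 had 95 and 69 in siUSP16 libraries 1 and 2, against 66 in the control.

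IFNAR1, the first chain of the type I receptor, had 507 and 946 counts in siUSP16 libraries 1 and 2, against 1362 in the control library (log2 changes of −1.51 and −0.75). IFNAR2, the second chain, had 522 and 484 counts in siUSP16 libraries 1 and 2, against 960 in the control (−0.97 and −1.21). IFNAR2 shares exons with the readthrough gene AP000295.9 on its strand, which had 92 and 72 counts in siUSP16 libraries 1 and 2, against 101 in the control. IL10RB, a chain of the type III receptor, had 524 and 301 counts in siUSP16 libraries 1 and 2, against 696 in the control, and its partner IFNLR1 had 176 and 119 in siUSP16 libraries 1 and 2, against 203 in the control. Of the interferon gamma receptor, IFNGR2 had 1432 and 1341 counts in siUSP16 libraries 1 and 2, against 2008 in the control, and IFNGR1 had 871 and 940 in siUSP16 libraries 1 and 2, against 753 in the control. IFNAR1, IFNAR2, IL10RB and IFNGR2 lie in a cluster on chromosome 21 (chr21:33229901-33479348), the chromosome of USP16 and MX1, and IFNGR1 lies on chromosome 6.

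Of the factors outside the 39 genes, STAT2, IRF2 and IRF5 were not called. STAT2, the partner of IRF9, had 570 and 752 counts in siUSP16 libraries 1 and 2, against 765 in the control. IRF2, which competes with IRF1 for its sites, had 323 and 379 counts in siUSP16 libraries 1 and 2, against 461 in the control, and IRF5 had 41 and 60 in siUSP16 libraries 1 and 2, against 63 in the control.

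**Figure D5:**
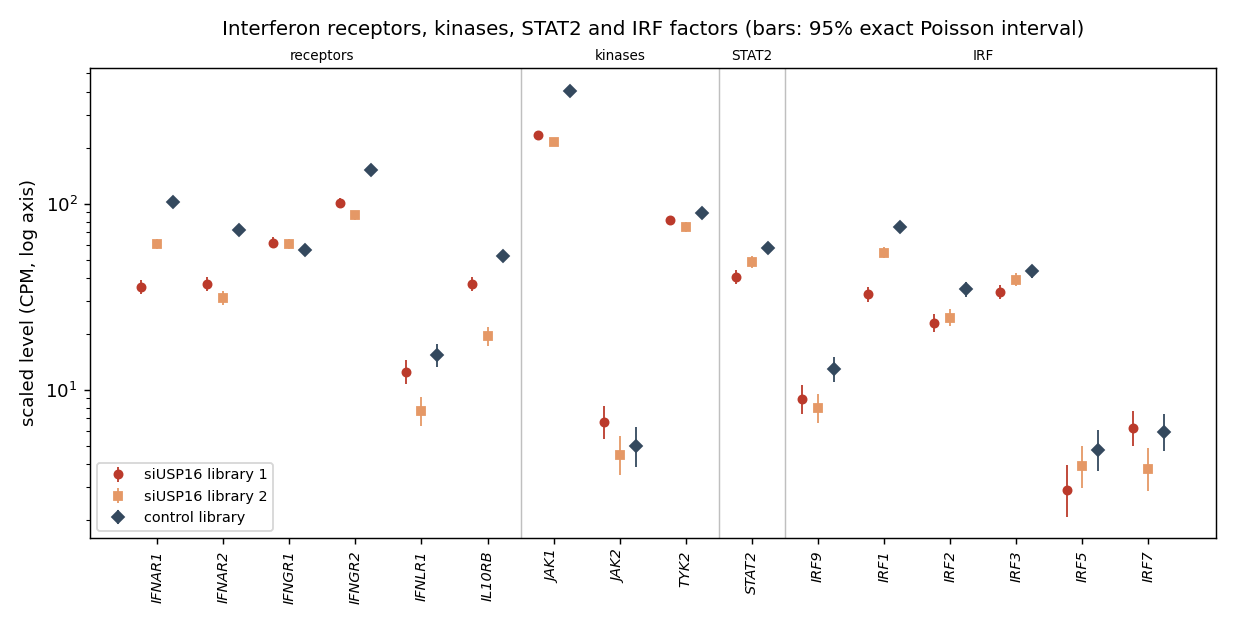
Scaled level (CPM, log axis) of interferon receptors, kinases, STAT2 and IRF factors in siUSP16 library 1, siUSP16 library 2 and the control library, with bars for the 95% exact Poisson interval. The siUSP16 points lie together and below the control point for JAK1 (234 and 215 CPM in siUSP16 libraries 1 and 2, against 402 CPM in the control), whereas IFNGR1 is slightly above it.

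The interferon-stimulated genes did not move as 1 block: of 26 with at least 20 counts, 14 were lower in both siUSP16 libraries and 5 higher. Under total counts, 11 were lower and 6 higher in both. Of all tested genes, 33.5% were lower and 33.4% higher in both (26.1% and 40.7% under total counts). IFITM3 and OAS3 supplied 41.1% of the summed list in the control. The sum was 34.8% lower in library 1 and 12.5% lower in library 2 (30.3% and 5.03% under total counts). In these libraries the log2 changes were −0.78 and −0.90 for JAK1, −1.51 and −0.75 for IFNAR1, and −0.97 and −1.21 for IFNAR2. The part of lower JAK1 or receptor levels in any of these differences was not tested. All 3 libraries shared transfection, so a response to transfection that is common to them cannot be told apart from the resting level of the line. Within the libraries, IFNB1 had at most 1 count, RSAD2 and MX2 had 0, and IFIT1, IFIT2 and IFIT3 had at most 62, 40 and 14 counts. MX1, DDX60 and ISG15 had at most 252, 238 and 183 counts, and IFITM3 and OAS3 at most 1990 and 1604. The part of transfection in these levels was not tested.

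Of the inhibitors of the pathway, 4 of 8 were lower and 3 were higher in both siUSP16 libraries (3 and 5 under total counts), and none was called. The shares of all tested genes were 33.5% lower and 33.4% higher (26.1% and 40.7% under total counts). PTPN11, the phosphatase SHP2, had 3994 and 3605 counts in siUSP16 libraries 1 and 2, against 1970 in the control library, a log2 change of 0.79 ± 0.20 (SD, 2 siUSP16 libraries) with an edgeR adjusted p of 0.999. PTPN2, a phosphatase that acts on JAK1, had 678 and 721 counts in siUSP16 libraries 1 and 2, against 493 in the control. SOCS1, a JAK inhibitor induced by interferon, had 14 and 11 counts in siUSP16 libraries 1 and 2, against 23 in the control. PTPN6 had 464 and 283 counts in siUSP16 libraries 1 and 2, against 259 in the control.

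Among 18 tested genes of RNA and DNA sensing, 9 were lower and 5 higher in both siUSP16 libraries (7 and 5 under total counts), and none was called. Over all tested genes, 33.5% were lower and 33.4% higher in both (26.1% and 40.7% under total counts). MB21D1, which encodes the DNA sensor cGAS, had 489 and 463 counts in siUSP16 libraries 1 and 2, against 753 in the control library. Its adaptor STING (TMEM173) had 14 and 33 counts in siUSP16 libraries 1 and 2, against 35 in the control. ADAR, which edits double-stranded RNA, had 11789 counts in siUSP16 library 1 and 4547 in siUSP16 library 2, against 11445 in the control library, so library 2 alone was low. IFI16, a DNA sensor, had 8 and 36 counts in siUSP16 libraries 1 and 2, against 6 in the control, and was high in library 2 alone. Chemokines and cytokines of the RNA response were few, with 3 of 8 tested and none called. Of these, 2 were lower and 0 higher in both siUSP16 libraries (1 lower under total counts), beside the same shares of all tested genes. CXCL10 had 0 and 7 counts in siUSP16 libraries 1 and 2, against 4 in the control, and CXCL9 and CXCL11 had 0 in every library. CCL5 had 63 and 218 counts in siUSP16 libraries 1 and 2, against 208 in the control, and TNFAIP3, an inhibitor of NF-kB, had 258 and 645 in siUSP16 libraries 1 and 2, against 589 in the control, so both were low in library 1 alone. CXCL8 had 80 and 240 counts in siUSP16 libraries 1 and 2, against 88 in the control.

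A list of 30 further interferon-responsive genes, of which 27 were tested, had 9 lower and 6 higher in both siUSP16 libraries (5 and 8 under total counts). All tested genes had 33.5% lower and 33.4% higher in both (26.1% and 40.7% under total counts). The medians of the list were −0.19 and 0.17 in siUSP16 libraries 1 and 2, and none was called. APOL6 had 113 and 173 counts in siUSP16 libraries 1 and 2, against 274 in the control library. PARP12, an antiviral ADP-ribosyltransferase, had 388 and 551 counts in siUSP16 libraries 1 and 2, against 755 in the control, and LGALS3BP had 90 and 208 in siUSP16 libraries 1 and 2, against 232 in the control. GBP1, a GTPase strongly induced by interferon gamma, had 5 counts in siUSP16 library 1 and 85 in siUSP16 library 2, against 6 in the control library. GBP1 thus had the pattern of MX1, high in library 2 alone.

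Markers of immune cells, which can carry interferon-stimulated transcripts, were led by CD68 (144 and 130 counts in siUSP16 libraries 1 and 2, against 78 in the control) and CD14 (114 and 59 in siUSP16 libraries 1 and 2, against 91 in the control). PTPRC, CD3E, MS4A1 and NKG7, which define leukocytes, T cells, B cells and natural killer cells, had at most 1 count in any library. CD4 had 0 and 4 counts in siUSP16 libraries 1 and 2, against 0 in the control, and LYZ had 0 in both siUSP16 libraries, against 1 in the control. The part of such transcripts in the results was not tested.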

How the data were processed

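The authors deposited whole-number read counts per gene for 3 mRNA libraries of NCI-H23 cells, with no normalization visible in the values. Per the submitters' processing notes, HISAT2 2.0.4, StringTie 1.3.0 and hg38 were used, with no role given. Which program counted the reads, whether strand was used, how reads matching several genes were treated and which annotation served is not given in the sources used here, so overlapping genes and near copies cannot be told apart with certainty. Per the labels' protocols, DNase-treated total RNA went into an mRNA library kit. The count column of siUSP16 library 2 carries the number 6 in its header, and the library was used as labelled.

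The control library was grouped by its treatment label and the siUSP16 libraries by their titles. Genes were filtered with edgeR's filterByExpr, which kept 17287 of 50868, scaled with TMM (factors 1.02 and 1.03 for siUSP16 libraries 1 and 2, and 0.952 for the control) and tested in R 4.3.3 with edgeR 4.0.16 (quasi-likelihood F-test), p-values being adjusted by the Benjamini-Hochberg method over all tested genes at 0.05. Log2 changes use a prior count of 2. Intervals are exact Poisson for levels and exact binomial (Clopper-Pearson) for ratios, at 95%, and cover counting error only, since reads without molecular identifiers are not independent molecules. The floor was 3 counts per library. Positions, exon lengths and overlaps come from GENCODE 29, which matched 50111 gene rows and all 39 genes, and promoters from RefSeq on GRCh38.p14. The code was tested on simulated data. Alternatives were DESeq2 1.42.0, median-ratio size factors, total counts, a prior count of 10, no filter, a minimum mean of 100 counts, a limit of 50 counts for low genes and leaving out each siUSP16 library.

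The 39 genes and the other lists were chosen with earlier results of these data known. All 39 are named, as are all receptors and kinases, STAT2, interferon genes with any count and up to 4 genes of each other list with the largest mean change among those with at least 20 counts. Other genes were named after their values were seen. Some genes of these lists are not reported here.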

Additional observations from a re-analysis of the deposited data

How the results depend on the processing

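Of the 31 tested interferon-stimulated genes, 0 were called as reported, with DESeq2, with median-ratio size factors, with a minimum mean of 100 counts and with no filter, where 37 were tested and 2 had an unadjusted p under 0.05. Calls over all genes numbered 3 as reported, 14 with DESeq2, 70 with no filter and 1 with a minimum mean of 100 counts, and the cause was not tested. The count of interferon-stimulated genes at least 2-fold lower in both siUSP16 libraries was 0 with total counts or a prior count of 10. Under these settings OASL was less than 2-fold lower in a library. The count was also 0 with a minimum mean of 100, which left OASL untested. The count at least 2-fold higher in both was 1 with no filter (BST2), against 3.92% of all genes so tested. BST2 had 0 counts in the control library, so its place in this class rests on the prior count of 2. With a minimum mean of 100 counts, 10 of 17 tested genes were lower and 2 higher in both siUSP16 libraries, as fewer genes were tested. Of all genes so tested, 36.6% were lower and 29.7% higher in both. With 1 siUSP16 library left out, no test was possible, and the counts of 31 were 1 to 6 (2-fold lower), 0 to 1 (2-fold higher), 21 to 22 (lower) and 9 to 10 (higher). Of all tested genes, 5.55% were 2-fold lower in library 1 alone, where 6 of the 31 were, and 8.97% in library 2 alone, where 1 was, and 49.8% and 50.3% were lower at any size. In libraries 1 and 2 alone, 7.05% and 9.94% of all tested genes were 2-fold higher, and 50.1% and 49.7% were higher at any size. The medians were −0.45 (library 1 alone) and −0.10 (library 2 alone). The median log2 change of the genes with at least 20 counts was −0.28 as reported and −0.17 with total counts, which moved the median of all genes by 0.10 upward. Relative to all genes it was −0.25 under both, with 14 of 31 lower and 6 higher in both under total counts, against 26.1% and 40.7% of all tested genes. The mean log2 change of IRF9 was −0.21 with its readthrough gene summed, an alternative chosen after seeing the data. No paired analysis was possible because there was 1 control library. Depth limits the 13 genes with fewer than 20 counts in every library.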
